A study of Arabidopsis thaliana with 6 samples.

Results

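The transcripts of 44 cytosolic ribosomal protein genes of Arabidopsis thaliana were followed in atnaod and wild-type flowers. The members were chosen by locus code: a probe counted where the locus written beside it on the array, without its transcript number, was one of the 44. They were 44 of the 34176 genes on the array and 44 of the 24457 genes tested. In the RefSeq gene table (TAIR10.1), 28 of them carry a name, and the other 16 are given here by locus code. The table names 13 of them as large-subunit and 10 as small-subunit proteins. The remaining 21 were placed by general knowledge of the gene family, which gave 27 large-subunit and 17 small-subunit members.

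The study set 3 samples of atnaod, a mutant labelled as a T-DNA line, against 3 samples of wild type. The mutated gene, AtNAOD (AT4G17830), encodes the deacetylase that releases ornithine from N-acetylornithine, and ornithine is a precursor of polyamines and arginine. Each sample held about 100 fertilised flowers of stage 15, taken whole from 17 to 20 plants and pooled, so that each was a mixture of sepals, petals, stamens, pistils and young seeds, and each was read on 1 single-colour array. Plants of both genotypes grew at 25 °C with 16 h of light and 8 h of dark. The study's design text calls the replicates independent. The labels give 1 mutant line, and its background accession and any second allele are not given in the sources used here.

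Ribosomes hold a large and a small subunit, each built in the nucleolus from ribosomal RNA and many proteins. In plants nearly every ribosomal protein is encoded by a small family of paralogues, and mutants of single paralogues are known for pointed or narrow leaves, embryo arrest and faulty gynoecium patterning. Growing and dividing tissues make the most of these transcripts, and the target of rapamycin (TOR) kinase is a known regulator of their synthesis and translation. Polyamines bind ribosomal RNA, and thermospermine is known to act on the translation of transcripts with upstream reading frames.

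The targeted gene was examined first. One AtNAOD probe was well above background in all wild-type samples and in 0 of 3 atnaod samples, and it was at least 369-fold lower in atnaod (limma, adjusted p = 4.26e-07). A second AtNAOD probe was above background on all 6 arrays and was 1.23 lower in atnaod on the log2 scale. The 75th percentile of processed intensity was between 1355 and 2845 in atnaod and between 1318 and 3007 in wild type, with 73.2% to 79.2% of an array's probes above background. Samples 1 and 2 of both genotypes lay on 1 slide and sample 3 of both on another, and slide and scan cannot be told apart.

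All 44 members were detected on every array. Their 84 probes were well above background on all 6 arrays and none was saturated, so no member was lost to the signal filter. A level below is the log2 of processed intensity minus the 75th percentile of the array, and a difference is the atnaod mean of 3 levels minus the wild-type mean of 3.

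Most of the ribosomal protein transcripts were slightly less abundant in atnaod flowers. The difference was below 0 for 42 of 44 members, and of all genes tested 51.2% were below 0. Its median was -0.26 over the 44 members and -0.01 over all genes tested. limma called 5 members lower at an adjusted p under 0.05, where 3.06% of all genes were called lower, and it called 0 higher, where 2.72% were. At an unadjusted p under 0.05, 24 members were lower (13.9% of all genes) and 1, RPL3A, was higher (11.9%). In 27 members the 3 atnaod values all lay below the 3 wild-type values (17.0% of all genes), and in 1 they all lay above (15.3%). These are whole flowers, where fewer cells rich in these transcripts and less of the transcripts in each cell cannot be told apart.

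The shift was seen in each atnaod pool and on both slides. The median deviation of the 44 members from their own wild-type mean was -0.19, -0.33 and -0.31 in atnaod 1 to 3, and -0.06, 0.01 and 0.05 in wild type 1 to 3. The 3 atnaod medians lay below all 3 wild-type medians, and wild type 1 was the lowest of its genotype. Of the 44 members, 37, 42 and 42 lay below their wild-type mean in atnaod 1 to 3, against 32, 20 and 9 in wild type 1 to 3. The median difference was -0.23 within the first slide and -0.32 within the second.

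**Figure D1:**
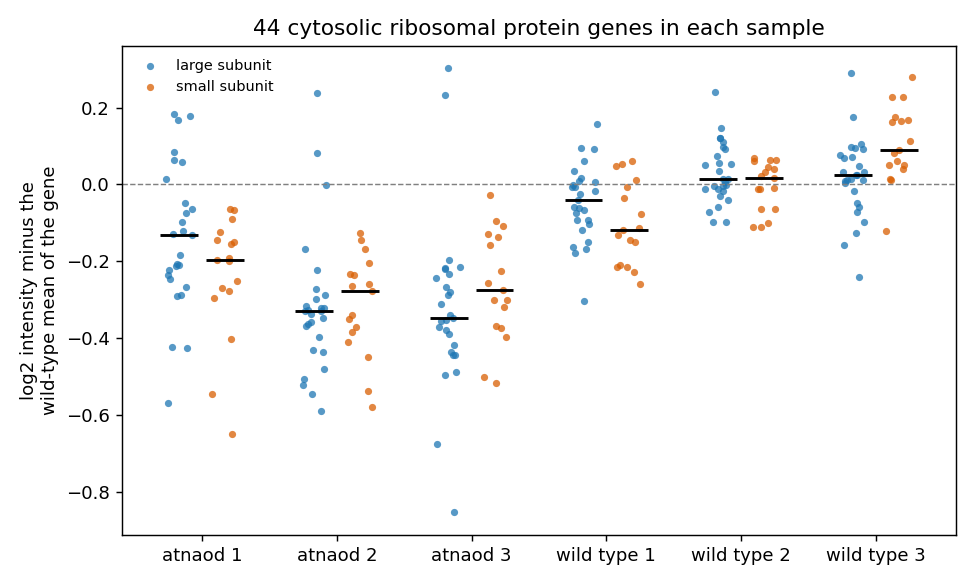
Each point is 1 ribosomal protein gene in 1 sample, drawn as its log2 level minus the mean of its 3 wild-type levels, with large-subunit members on the left and small-subunit members on the right of each sample and a bar at each median. The members' medians were -0.19, -0.33 and -0.31 in the 3 atnaod samples and between -0.06 and 0.05 in the wild-type samples.

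The count of 5 calls rests on narrow margins. The adjusted p of the 5 called members lay between 0.0396 and 0.0483 in limma. The replicate number was then taken as a block, although only the samples numbered 3, which shared the second slide, clearly deviated together. With this block 2 members were called by limma, where 2.72% of all genes were called lower. They were RPL36aB (adjusted p = 0.0467) and AT3G53890 (0.0469). With the slide as a block 7 were called (4.60% of all genes). Leaving out atnaod 2, atnaod 3, wild type 2 or wild type 3 left 0 members called by limma, where 0.0368%, 0.360%, 0.0327% and 0.0409% of all genes were called lower. At an unadjusted p under 0.05, 13, 13, 16 and 14 members were lower in these fits. Over all genes tested, 2217, 2578, 2573 and 2687 were, of 24457, or of 24456 without atnaod 3. Leaving out atnaod 1 or wild type 1 left 2 and 3 members, where 3.61% and 1.40% of all genes were called lower.

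Among the large-subunit proteins, RPL36aB, also known as API2 after the pointed leaves of its mutant, had the lowest difference. Its level was 0.61, 0.63 and 0.33 in atnaod, against 1.01, 1.42 and 1.11 in wild type. All atnaod values lay below all wild-type values, and the difference was -0.66 ± 0.14 (SE), or 63.5% of the wild-type level (limma, adjusted p = 0.0469). RPL24A, one of a pair of genes for a protein at the face where the subunits meet, had levels of 3.17, 3.0 and 2.91 in atnaod, against 3.43, 3.68 and 3.66 in wild type. It was lower in all atnaod samples, with a difference of -0.56 ± 0.11 (limma, adjusted p = 0.0396, and 0.0605 with the replicate block). Its second probe gave -0.64.

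RPL3B, one of a pair of genes for a protein that in yeast reaches towards the peptidyl transferase centre, was also called. Its level was -0.31, -0.54 and -0.51 in atnaod, against -0.04, -0.02 and 0.01 in wild type, so that the groups did not overlap. The difference was -0.44 ± 0.10 (limma, adjusted p = 0.0483, and 0.0598 with the replicate block). AT2G19730 was close behind, with levels of 2.45, 2.39 and 2.45 in atnaod, against 2.75, 2.81 and 3.05 in wild type and a difference of -0.44 (limma, adjusted p = 0.0550). Its groups did not overlap, and it was called with the slide as a block (adjusted p = 0.0386) but not with the replicate block (0.0576).

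Another 9 large-subunit members had smaller differences, from -0.37 to -0.22. RPL23AA and RPL23AB encode a protein that in yeast lies at the exit of the peptide tunnel, and their differences were -0.37 and -0.31. RPL40A, made as a fusion with ubiquitin and also named UBQ2, had -0.33. RPL5A and RPL5B, whose protein in yeast carries the smallest ribosomal RNA of the large subunit, had -0.32 and -0.26. PGY1 and PGY2, known with RPL5A from the piggyback mutants of leaf polarity, had -0.22 and -0.26. EMB2296 and emb2386, named after mutants that arrest as embryos, had -0.23 and -0.27. None of these 9 members passed the adjusted threshold.

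Both members with a difference above 0 belong to the large subunit. RPL3A had levels of 4.77, 4.84 and 4.90 in atnaod, against 4.66, 4.59 and 4.55 in wild type, and all atnaod values lay above all wild-type values. The difference was 0.24 ± 0.09, with an interval of 0.03 to 0.44, and did not pass the threshold (limma, adjusted p = 0.143). Its second probe gave 0.23. RPL10C, the gene also named SAG24 for its rise in senescing leaves, had levels of 4.35, 4.37 and 4.52 in atnaod, against 4.23, 4.28 and 4.36 in wild type. The groups overlapped slightly, and the interval of the difference of 0.12 ran from -0.09 to 0.34. AT3G09630 was near 0, at -0.01 with an interval of -0.32 to 0.29, and its sign changed with the scaling: it was 0.03 after quantile normalization and 0.01 after median centring.

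**Figure D2:**
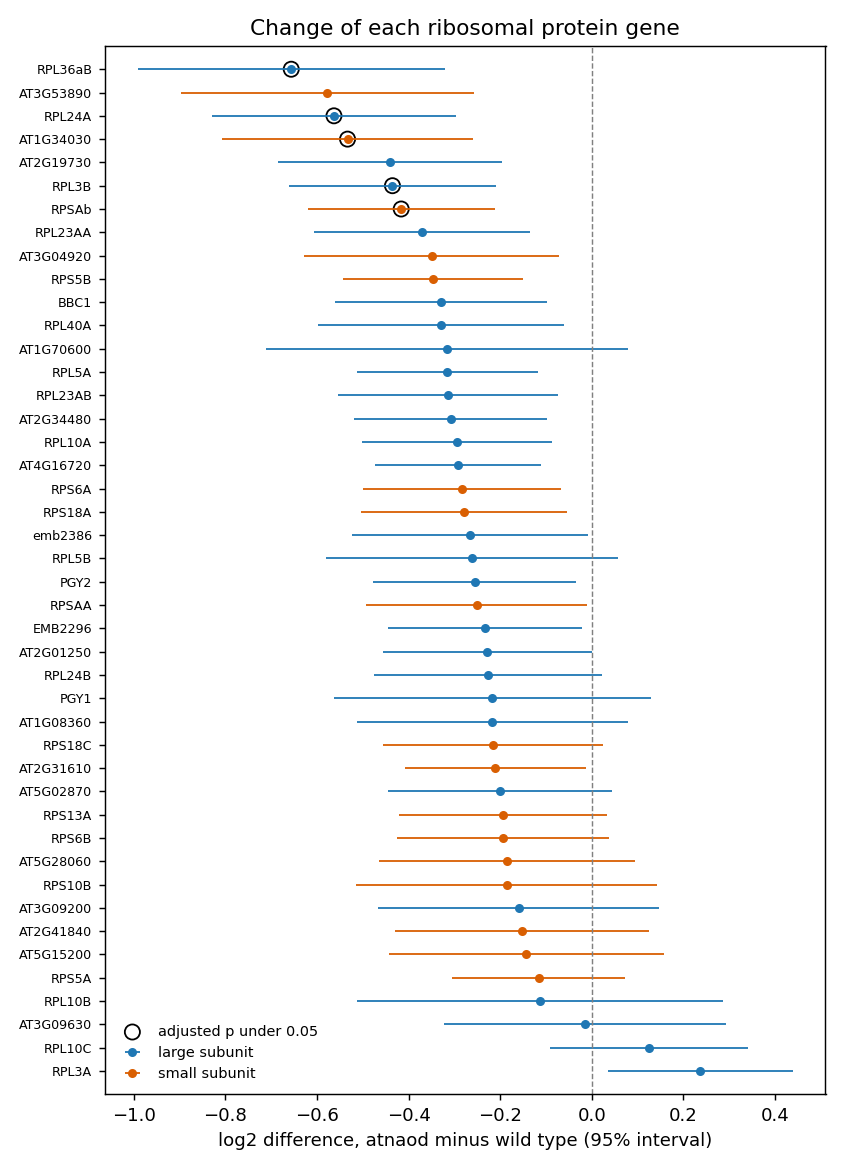
The atnaod minus wild-type log2 difference of each of the 44 members with its 95% limma interval, ordered from lowest to highest, blue for the large and orange for the small subunit, with a ring around the 5 members under an adjusted p of 0.05. The members run from -0.66 for RPL36aB to 0.24 for RPL3A, and 42 of 44 points lie left of 0.

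Among the small-subunit proteins, all 17 differences were below 0. RPSAb, whose protein is the plant relative of an animal laminin receptor, had levels of -0.13, -0.17 and -0.12 in atnaod, against 0.33, 0.17 and 0.32 in wild type. The groups did not overlap, and the difference was -0.42 ± 0.09 (limma, adjusted p = 0.0437, and 0.0523 with the replicate block). Its second probe gave -0.29. AT1G34030 had levels of 0.71, 0.72 and 0.74 in atnaod, against 1.04, 1.3 and 1.43 in wild type. The 3 atnaod values lay close together and below all wild-type values, and the difference was -0.53 ± 0.12 (limma, adjusted p = 0.0474, and 0.0520 with the replicate block).

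AT3G53890 had the lowest difference of the small subunit. Its level was 2.39, 2.46 and 2.54 in atnaod, against 2.78, 3.07 and 3.27 in wild type, with no overlap. The difference was -0.58 ± 0.14 (limma, adjusted p = 0.0550), which missed the threshold without a block and passed it with the replicate block and with the slide block (adjusted p = 0.0469 and 0.0364).

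RPS6, the protein that S6 kinase phosphorylates when TOR is active, is encoded by RPS6A and RPS6B. RPS6A had levels of 4.49, 4.33 and 4.38 in atnaod, against 4.61, 4.67 and 4.78 in wild type, without overlap, and a difference of -0.28 (limma, adjusted p = 0.111). RPS6B had 3.34, 3.37 and 3.20 in atnaod, against 3.55, 3.57 and 3.38 in wild type, and a difference of -0.19 (limma, adjusted p = 0.265). Its groups did not overlap by a narrow gap. RPS18A and RPS13A are known from the pointed first leaves of their mutants, and had differences of -0.28 and -0.19.

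The least lowered small-subunit members were RPS5A at -0.12, AT5G15200 at -0.14 and AT2G41840 at -0.15. RPS5A is highly active in dividing cells and is needed by the early embryo. Its level was 5.03, 4.96 and 4.96 in atnaod, against 5.07, 5.12 and 5.11 in wild type. The atnaod values lay just below the wild-type values, and the interval of the difference ran from -0.30 to 0.07.

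The subunits differed little in their medians. The median difference was -0.27 over the 27 large-subunit members and -0.22 over the 17 small-subunit members, and the large minus small gap of medians was -0.05. Of the 27 large-subunit members 3 were called lower, and of the 17 small-subunit members 2 were, where 3.06% of all genes were. Within samples the large minus small gap of median deviations was 0.06, -0.05 and -0.07 in atnaod 1 to 3, against 0.08, -0.00 and -0.07 in wild type 1 to 3, and these ranges overlapped. Between samples of the same number, atnaod minus wild type, the gap differed by -0.01, -0.05 and -0.01 for numbers 1 to 3. Among the 23 members whose subunit the table names, the medians were -0.31 and -0.23, with a gap of -0.08. Their gap within samples was -0.03, -0.09 and -0.08 in atnaod 1 to 3, against -0.00, 0.05 and -0.03 in wild type 1 to 3, with atnaod 1 and wild type 3 equal to 2 decimals, and the differences between samples of the same number were -0.03, -0.14 and -0.05. All of these differences were below 0, and no test was made of a gap over chosen members. BBC1, at -0.33, was placed in the large subunit by general knowledge, although a synonym in the table reads as a small-subunit protein, and it is not among the 23. Members' differences spread over an interquartile range of 0.11 in the large and 0.16 in the small subunit, where the median replicate SD was 0.11 in both. That SD is between single samples, while each difference is between means of 3, so these values do not compare directly.

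Paralogues were compared within arrays, by the difference of the log2 levels of the 2 genes, whose genotype difference does not depend on array scaling. The 44 members held 16 pairs from 12 families, and in 11 pairs both genes are named in the table. With 3 against 3 samples the exact permutation test cannot go below p = 0.10, and after adjustment over the 16 pairs the smallest p was 0.20, so no pair could be called. The intervals below come from a limma fit over the 16 pairs, some of which share a gene, and are not adjusted for their number. In 8 of the 16 pairs the groups did not overlap. How often this occurs among pairs of other genes was not examined, so whether it is particular to paralogues is not known. The median size of the 16 paralogue differences was 0.18. The probe sequences were not examined here, and whether a probe of one paralogue also binds the other was not tested.

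RPL3A and RPL3B differed most in their change between genotypes. The RPL3A minus RPL3B gap in log2 signal was 5.08, 5.38 and 5.42 in atnaod, against 4.71, 4.61 and 4.55 in wild type. The groups did not overlap, and the gap was 0.67 wider in atnaod (95% interval 0.44 to 0.91, exact permutation p = 0.10, n = 3 each). Over the alternatives tried, this difference was 0.57 to 0.87.

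The 3 RPL10 genes also differed among themselves. RPL10A, known as SAC52 from a mutation that suppresses the dwarfism of a thermospermine-deficient mutant, had a difference of -0.29, RPL10B of -0.11 and RPL10C of 0.12. The RPL10A minus RPL10C gap was 0.69, 0.53 and 0.33 in atnaod, against 0.99, 0.94 and 0.87 in wild type, so the groups did not overlap. The gap was 0.42 narrower in atnaod, with a difference of -0.42 and an interval of -0.64 to -0.19. The RPL10A to RPL10B and RPL10B to RPL10C differences of -0.18 and -0.24 had intervals that held 0.

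RPL24A had the lower genotype difference of its pair with RPL24B, which is also named STV1 after its short-valve mutant and is known for gynoecium patterning and for reinitiation after upstream reading frames. The RPL24A minus RPL24B gap was -0.93, -0.82 and -0.92 in atnaod, against -0.65, -0.50 and -0.52 in wild type, and the difference was -0.34 (interval -0.50 to -0.18). RPL24B itself was at -0.23 with an interval of -0.48 to 0.02, and its 2 other probes gave -0.33 and -0.31. The difference between the 2 genes ranged from -0.40 to -0.30 over the alternatives.

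Among small-subunit pairs, the gap between RPS5A and RPS5B and that between RPSAA and RPSAb were wider in atnaod. The RPS5A minus RPS5B gap was 0.91, 0.90 and 0.91 in atnaod, against 0.63, 0.76 and 0.64 in wild type, a difference of 0.23 (interval 0.09 to 0.38). RPS5B itself was at -0.35 (limma, adjusted p = 0.0573). The RPSAA minus RPSAb difference was 0.17, and its lower bound of 0.01 was near 0. With the lowest-mean probe of each gene these 2 values were 0.16 and 0.07.

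For 4 other named pairs the interval held 0. The RPL5A minus RPL5B difference was -0.05 (interval -0.35 to 0.25), that of RPL23AA minus RPL23AB -0.06 (-0.19 to 0.08), that of RPS18A minus RPS18C -0.06 (-0.25 to 0.12) and that of RPS6A minus RPS6B -0.09 (-0.34 to 0.16). These intervals still allow differences as large as the median over the pairs for RPL5A with RPL5B, RPL23AA with RPL23AB, RPS18A with RPS18C and RPS6A with RPS6B. The 5 further pairs hold at least 1 gene that the table does not name and rest on the family placement made here. In 3 of them the groups did not overlap and the interval left out 0. AT1G34030 minus RPS18C was -0.32 (-0.48 to -0.15), RPS18A minus AT1G34030 was 0.25 (0.10 to 0.41) and AT3G04920 minus AT5G28060 was -0.16 (-0.31 to -0.02), and the first 2 of these share AT1G34030. AT3G09630 minus AT5G02870 was 0.18 (-0.03 to 0.40), and PGY1 minus AT1G08360 was -0.00 (-0.14 to 0.14). Some of these values moved with the processing, and the cause was not tested. With the deposited values RPS6A minus RPS6B was -0.29, PGY1 minus AT1G08360 was -0.17 and RPL23AA minus RPL23AB was -0.01, and with normexp they were the same to 2 decimals. RPL23AA minus RPL23AB was -0.12 with the mean over probes and -0.17 with the lowest-mean probe. On the second slide alone AT3G09630 minus AT5G02870 was 0.06, RPS18A minus RPS18C was -0.18 and AT1G34030 minus RPS18C was -0.47.

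**Figure D3:**
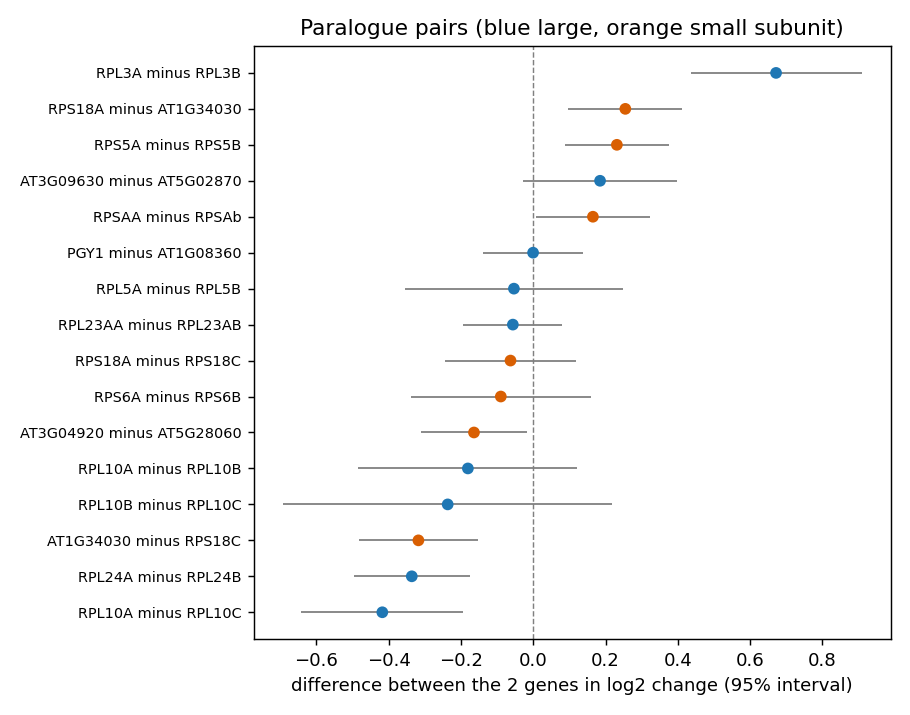
For each of 16 pairs of paralogues, the atnaod minus wild-type difference of the within-array gap between the 2 genes in log2 units, with its 95% limma interval, ordered from highest to lowest, blue for the large and orange for the small subunit. RPL3A minus RPL3B lies highest at 0.67 and RPL10A minus RPL10C lowest at -0.42.

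The separate probes of a gene moved alike. In the 30 members with more than 1 tested probe, no gene had probes of both signs, and the median spread between the probes of a gene was 0.05. Of the 84 member probes 81 were lower in atnaod. The 40 probes that did not stand for their gene in the fit had a median of -0.27, and 39 of them were lower. The widest spread, 0.27, was that of AT3G09200 with 4 probes, where the probe that stood for the gene gave -0.16 and the others lay between -0.43 and -0.17. That gene was above 0, at 0.10, with the deposited values and with normexp background correction.

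Ribosomal protein genes outside the 44 were set beside them, from lists drawn by their names in the gene table. Genes without such a name are not in these lists, which therefore do not cover the whole family. All 13 listed cytosolic genes outside the 44 were below 0 with a median of -0.27. Of these RPL36aA, the paralogue of RPL36aB by name, was called lower, where 3.06% of all genes were. It was at -0.55 (limma, adjusted p = 0.0466, and just above the threshold with the replicate block). All 19 genes for proteins of plastid or mitochondrial ribosomes were below 0 as well, with a median of -0.32. Of these PRPL28 (-0.41) and RPL21C (-0.37) were called lower (limma, adjusted p = 0.0443 and 0.0458), where 3.06% of all genes were. With the replicate block neither was (0.0548 and 0.0569). With the slide block 5 of the 19 were called lower. With quantile normalization, or with the gene-length trend described below taken out, 0 were called. The organellar median was not nearer to 0 than that of the 44 cytosolic members.

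Genes that act with the ribosome did not share one direction. Of 18 translation factor genes 8 were below 0, with a median of 0.01. AT5G12110 was called lower (-0.54, limma, adjusted p = 0.0257) and EIF4A-2, a gene for the RNA helicase of initiation, was called higher (0.45, limma, adjusted p = 0.0456, and 0.0548 with the replicate block). Of 15 nucleolar assembly genes 10 were below 0 with a median of -0.11, and limma called 0 of them, with 1 at an unadjusted p under 0.05. That gene, BRX1_1, was at -0.43 (limma, adjusted p = 0.0853). It was called lower with the replicate block (0.0498) and with the slide block (0.0337). Of 4 genes for RACK1 proteins, which sit on the small subunit, and TCTP, 2 were below 0 and 0 were called.

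Genes of the TOR pathway lay mostly above 0. Of 6 genes for TOR, its partners, S6 kinases and a ribosomal stress factor, 5 were above 0, with a median of 0.21 (with the lowest-mean probe of each gene, 3 were above 0 and the median was 0.05). TOR had levels of 0.53, 0.79 and 0.73 in atnaod, against 0.22, -0.03 and 0.07 in wild type, without overlap. It was called higher, by 0.60 ± 0.11 (limma, adjusted p = 0.0358), and missed the threshold with the replicate block (0.0552). Once the gene-length trend described below was taken out, 0 of the 6 genes were called higher (879 of all genes). The median of the 6 was then 0.11. Normexp background correction also left 0 of them called higher (101 of all genes), as did the deposited values (5 of all genes). Quantile normalization, median centring and the slide block each left 1 called higher.

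Markers of dividing cells and of young seeds were mostly below 0. Of 16 markers of dividing cells 15 were below 0 with a median of -0.40. Their summed linear level was 17.4 to 20.9 times the 75th percentile in atnaod, against 23.6 to 29.4 times in wild type. Only TSO2 of these was called lower, where 3.06% of all genes were. Of 10 seed coat markers 9 were below 0 with a median of -0.81, and their summed level was 5.04 to 7.08 in atnaod, against 9.57 to 11.4 in wild type. limma called 5 of them lower, where 3.06% of all genes were, and 8 with the replicate block or the slide block. It called 1 with normexp (142 of all genes), and 0 with the deposited values (7 of all genes) or on the first slide alone (7 of all genes). The seed coat medians in these 3 settings were -0.70, -0.71 and -0.71. Of 10 early seed markers tested 8 were below 0, with a median of -0.48 (-0.15 with normexp background correction, and -0.31 and -0.76 on the first and second slide) and a summed level of 0.636 to 0.743 in atnaod, against 0.821 to 0.901 in wild type. IKU2, PHE1 and WOX8 of that list were not well above background. The part of these tissues in the ribosomal protein result was not tested. In the linear sums the brightest marker weighs most, TSO2 among those of dividing cells and BAN among those of the seed coat, and both were called lower.

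Markers of other tissues did not share one direction. Of 8 markers of green tissue 3 were below 0, with a median of 0.03, and of 8 senescence markers 3 were. Of 12 pollen markers tested 1 was below 0, with a median of 0.25, and 0 were called by limma, with 0 lower and 1 higher at an unadjusted p under 0.05. That median was 0.51 with the second slide alone, 0.09 with the first alone and 0.04 without atnaod 3, when 4 of 12 were below 0. Pollen genes summed to 17.1 to 33.6 in atnaod, against 19.5 to 23.4 in wild type, and GRP17, GRP19, DUO1 and HAP2 were not well above background. Of 8 floral organ genes STK, SHP1 and SHP2, which pattern ovules and carpels, were called lower, at -0.73, -0.49 and -0.48. Of all genes 3.06% were called lower. With normexp or with the deposited values 0 of the 8 were called. CRC, also a carpel gene, was at 0.59 without overlap (limma, adjusted p = 0.0592, and called higher with the replicate block at 0.0434), and AP1 and SPT were at 0.17 and 0.15. The median of the 8 was -0.13, and -0.29 to -0.03 with 1 sample left out.

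**Figure D4:**
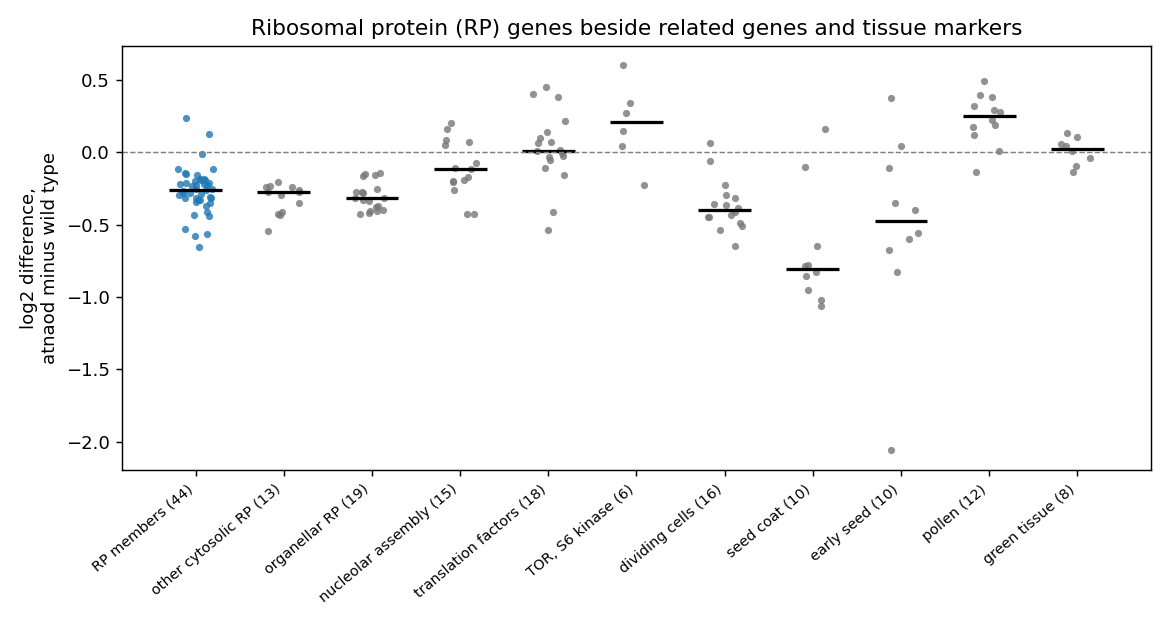
The atnaod minus wild-type log2 difference of each gene (points) and the median (bars) for the 44 ribosomal protein members on the left and 10 lists of related genes and tissue markers, with the number of tested genes in brackets. Cytosolic and organellar ribosomal protein genes lie between -0.26 and -0.32 at the median, translation factors at 0.01, dividing-cell markers at -0.40 and seed coat markers at -0.81.

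Gene length moved with the genotype difference over all genes. Across 21799 genes with a length, which are not independent replicates and share the same 6 arrays, the Spearman correlation of length and difference was 0.28, and the median difference ran from -0.15 in the shortest of 10 bins of equal size to 0.13 in the longest. The correlation of length with each array's deviation was 0.25, 0.35 and 0.05 in atnaod 1 to 3, against 0.17, -0.42 and -0.38 in wild type 1 to 3, so that it differed within genotypes. The ribosomal protein genes are short, with 959 to 2593 bases and a median of 1739, against 2288 over all genes tested. The 10956 genes within the members' length range had a median of -0.06. With the length trend taken out of each array the members' median was -0.19, 41 of 44 were below 0 and 5 were called lower, where 3.51% of all genes were. In that setting AT3G53890 was called and RPSAb was not (limma, adjusted p = 0.0513). Among the 44 members themselves length and difference were unrelated, with a Spearman correlation of 0.01.

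**Figure D5:**
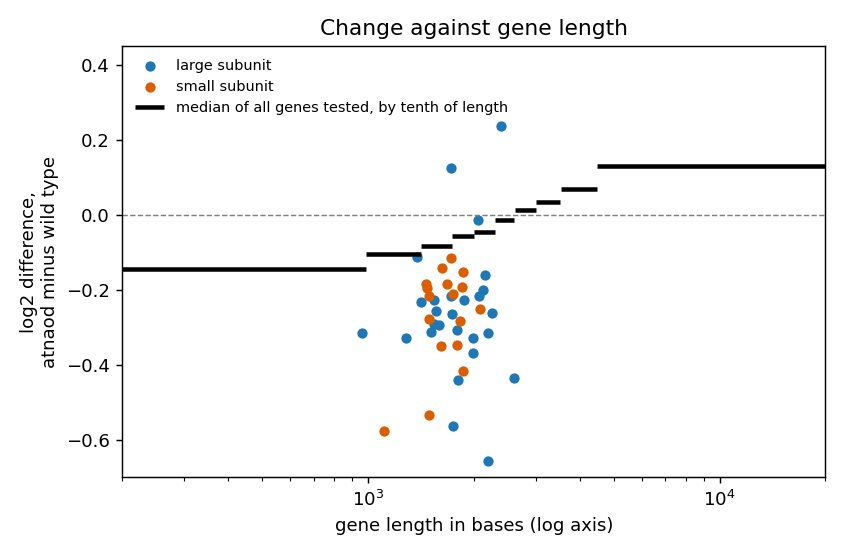
Log2 difference, atnaod minus wild type, against gene length in bases on a log axis for the 44 members (blue for the large, orange for the small subunit), with black bars for the median of all genes tested in each of 10 bins of gene length. The members lie between 959 and 2593 bases, and most of them lie below the bar of their own length.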

How the data were processed

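Per the file headers, each spot's fluorescence intensity was read with Agilent Feature Extraction 10.5.1.1 (10.5 per the submitters' processing notes), with background subtracted and no normalization between arrays. The authors' deposited values are also intensity, checked to be the median signal times 1 constant per array. Log2 of the processed intensity was averaged over the spots of a probe without outlier spots, and the array's 75th percentile over non-control probes was subtracted. A probe was tested where every array of 1 genotype or of both had it well above background. The probe with the highest mean stood for a gene. The comparison used limma 3.58.1 (R 4.3.3), two-sided, with Benjamini-Hochberg adjustment over 24457 genes and 95% intervals. In a check on simulated data, 50 of 24406 genes were given each of 4 sizes of log2 change. The rates hold for that number of changed genes and are not the rates for the data themselves. limma called 0% of genes given a log2 change of 0.3 and 4% of those given 0.5. It called 66% and 88% of those given changes of 1 and 2.

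The members, lists and tests were chosen with earlier results of these data known. AtNAOD, the called members, the families with 2 or 3 members, the extremes of each subunit and the called genes of other lists were open to naming. Deviations of samples with the same number correlated across genes at 0.190, 0.111 and 0.535. The other combinations reached 0.215, so only number 3, on the second slide, stood apart. The labels' numbers served as a block in an alternative fit and were not in the main fit. Normexp was planned on the mean signal and run on the median signal with an offset of 50. Promoter motifs were not analysed here. Array number limits the precision.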

Additional observations from a re-analysis of the deposited data

How the results depend on the processing

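The number of members called lower, 5 with limma, was 0 with normexp background correction, with the deposited values, without a filter on dim probes, on the first slide alone and with the lowest-mean probe of each gene. It was 2 with the replicate block, 3 with the mean over the probes of a gene and 8 with a trended and robust prior, and it ran from 0 to 3 when 1 sample was left out. Over all genes, 749 were called lower and 665 higher, against 142 and 101 with normexp, 7 and 5 with the deposited values, 13 and 9 without the filter, 7 and 6 on the first slide, 475 and 375 with the lowest-mean probe and 1227 and 1032 with the trended prior. Slide blocking gave 1124 and 999, the replicate block 666 and 631, and the mean over the probes of a gene 663 and 564. Median centring gave 714 and 748, and leaving out 1 sample gave 8 to 883 lower and 6 to 668 higher.

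The median of the 44 members stayed below 0 in every setting tried, and the median of the small-subunit members was -0.32 on the second slide alone, where 1 sample a genotype allows no test. AT3G09630 turned to 0.00530 with normexp, 0.00637 with median centring, 0.00611 with the deposited values, 0.0266 with quantile normalization, 0.0277 without the length trend and 0.0582 on the first slide. With 1 sample left out it ran from -0.111 without atnaod 1 to 0.0876 without atnaod 3, and was also above 0 without wild type 1. AT3G09200 turned to 0.102 with normexp and 0.103 with the deposited values. RPL10B ran from -0.261 without atnaod 1 to 0.00730 without atnaod 3. Of the 16 paralogue differences, 4 moved by more than the replicate SD with normexp and with the deposited values, RPL3A minus RPL3B to 0.87 among them. The cause was not tested. The normexp background limit, the lowest-mean probe, the length trend and the subunits named by the table were chosen after seeing the data. No member probe was saturated, so leaving out saturated spots changed nothing.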
